A study of Mus musculus with 8 samples.

Results

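Collagen chain genes were followed in bulk RNA sequencing of cells sorted from the lower molars of mouse pups. The members are all protein-coding genes whose symbol has the form Col, a number, the letter a and a number, and 44 of the 56748 genes counted met that rule. All 44 passed the filter on low counts. The cells carried the red fluorescent reporter tdTomato, were sorted at postnatal day 10 after tamoxifen at postnatal day 3, and are labelled as CXCL12+ cells from the apical papilla, a pad of mesenchyme beneath each developing molar root. The comparison was between 4 libraries labelled cHet, with genotype Ctnnb1(+/-), and 4 labelled cKO, with genotype Ctnnb1(-/-). Ctnnb1 encodes beta-catenin, the transducer of canonical Wnt signalling, and both groups received tamoxifen and carried the reporter. The cHet libraries, the reference of the comparison, are thus not wild type but are labelled as lacking 1 working copy. The sources used here do not give the strain, the Cre driver, the deleted exons or the number of animals behind a library, so every p-value rests on spread among libraries that may be purely technical.

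A collagen molecule is a rope of polypeptide chains wound round each other, and the genes differ in the structure that their chains build. Fibrillar collagens form the banded fibrils of dentin, bone, pulp and ligament, and in a tooth most of the organic matrix of dentin is type I collagen laid down by odontoblasts. FACIT collagens coat such fibrils, network collagens build sheets such as the basement membrane, and transmembrane collagens stay anchored in the cell surface and can be shed from it. Chains are hydroxylated and glycosylated inside the cell, folded with chaperones, trimmed of their propeptides and cross-linked outside it.

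Library totals lay between 44444033 and 50051392 counts, and the 44 collagen genes together took 1.21%, 0.483%, 1.21% and 1.11% of all counts in cHet8, cHet11, cHet12 and cHet14 and 1.87%, 1.55%, 2.302% and 2.85% in cKO7, cKO9, cKO14 and cKO15. Each cKO library thus had a larger collagen share than each cHet library, with means of 1.002 ± 0.349% and 2.14 ± 0.565% (SD, n = 4 each). Values per library below keep that order of the libraries, and levels are CPM with TMM-scaled library sizes. Ctnnb1 itself averaged 257 ± 40.2 CPM in the cHet libraries and 277 ± 39.2 CPM in the cKO libraries (SD, n = 4 each, edgeR adjusted p = 0.785), and counts over the whole gene do not show whether its deleted part was transcribed. Cxcl12, the gene that defines the labelled cells, stood at 268, 66.4, 172 and 89.1 CPM in cHet and 992, 491, 818 and 1001 CPM in cKO and was called higher (log2 fold change 2.47 ± 0.46, SE, adjusted p = 0.0497). The labels disagree on the tissue, naming dental pulp as the source and follicle cells in the extraction. In the libraries, markers of other tissues were abundant: the 8 olfactory neuron markers summed to 6160 to 11794 CPM in cHet and 5587 to 6941 CPM in cKO, and the 7 ameloblast markers to 2314 to 11465 and 4712 to 8553 CPM. The 12 general mesenchyme markers, none of them a collagen, summed to 989 to 3332 CPM in cHet and 1918 to 4418 CPM in cKO, and 7 of the 12 were higher in every cKO library (6.46% of all genes tested). In that list Dcn and Lum went the other way, with log2 fold changes of −1.04 and −0.66. The 10 dental papilla markers, Cxcl12 among them, summed to 469 to 1153 CPM in cHet and 2568 to 4618 CPM in cKO. The 6 dental follicle markers summed to 291 to 1024 and 1727 to 5061 CPM. In these lists 7 and 3 genes were higher in every cKO library, and 1 and 0 were lower (3.68% of all genes tested). In bulk RNA, fewer cells of a type and less RNA per cell cannot be told apart, and the part of these markers in the collagen values was not tested beyond the fits given below.

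Most collagen genes had a higher mean in cKO than in cHet. Of the 44, 31 had a positive log2 fold change of cKO against cHet, where 47.5% of all 21508 genes tested did, and the median was 0.88 against −0.027 over all genes tested. When libraries were scaled to equal mesenchyme markers the median of all genes shifted to −1.35 and that of the collagens to −0.23. The sign of the collagen median thus reversed. It stayed above that of all genes, but such scaling moves nearly every gene by a similar amount. The order of the 2 medians could therefore hardly change, and it is no separate check. With the mesenchyme score as a covariate the collagen median was 0.094 against 0.018 over all genes tested. Then 24 of 44 were positive against 51.9% of all genes tested, both near the background. The score itself ran from 4.65 to 6.43 in cHet and from 6.24 to 7.22 in cKO. Score and genotype thus went largely together, and that fit cannot tell them apart. Groups did not overlap for 12 collagens that were higher in every cKO library (6.46% of all genes tested) and for 1 that was lower in every cKO library (3.68% of all genes tested). At an adjusted p under 0.05, edgeR's quasi-likelihood test called 2 collagens higher, Col25a1 and Col16a1 (1.08% of all genes tested), and 1 lower, Col24a1 (0.0558% of all genes tested). The number of calls rested on the test: DESeq2 called 15 collagens higher (6.79% of all genes tested) and limma voom with quality weights 13 (5.96% of all genes tested), each with Col24a1 the lone one lower (2.71% and 1.26%). Beside Col25a1 and Col16a1, both tools called Col3a1, Col4a5, Col4a6, Col5a1, Col6a1, Col6a2, Col8a1, Col8a2, Col9a2, Col19a1 and Col23a1 higher, and DESeq2 also called Col12a1 and Col13a1. At an unadjusted p under 0.05, edgeR had 22 of 44 higher (10.8% of all genes tested) and 1 lower (6.33% of all genes tested). Leaving out cHet12, cHet14 or cKO14 left edgeR with 0 calls among all genes tested, and so with 0 collagens. At an unadjusted p under 0.05, edgeR then had 19, 19 and 21 of 44 collagens, against 15.1%, 13.5% and 13.2% of all genes tested. Leaving out cKO9 instead gave 12 collagens higher and 1 lower (3.67% and 0.648% of all genes tested).

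**Figure D1:**
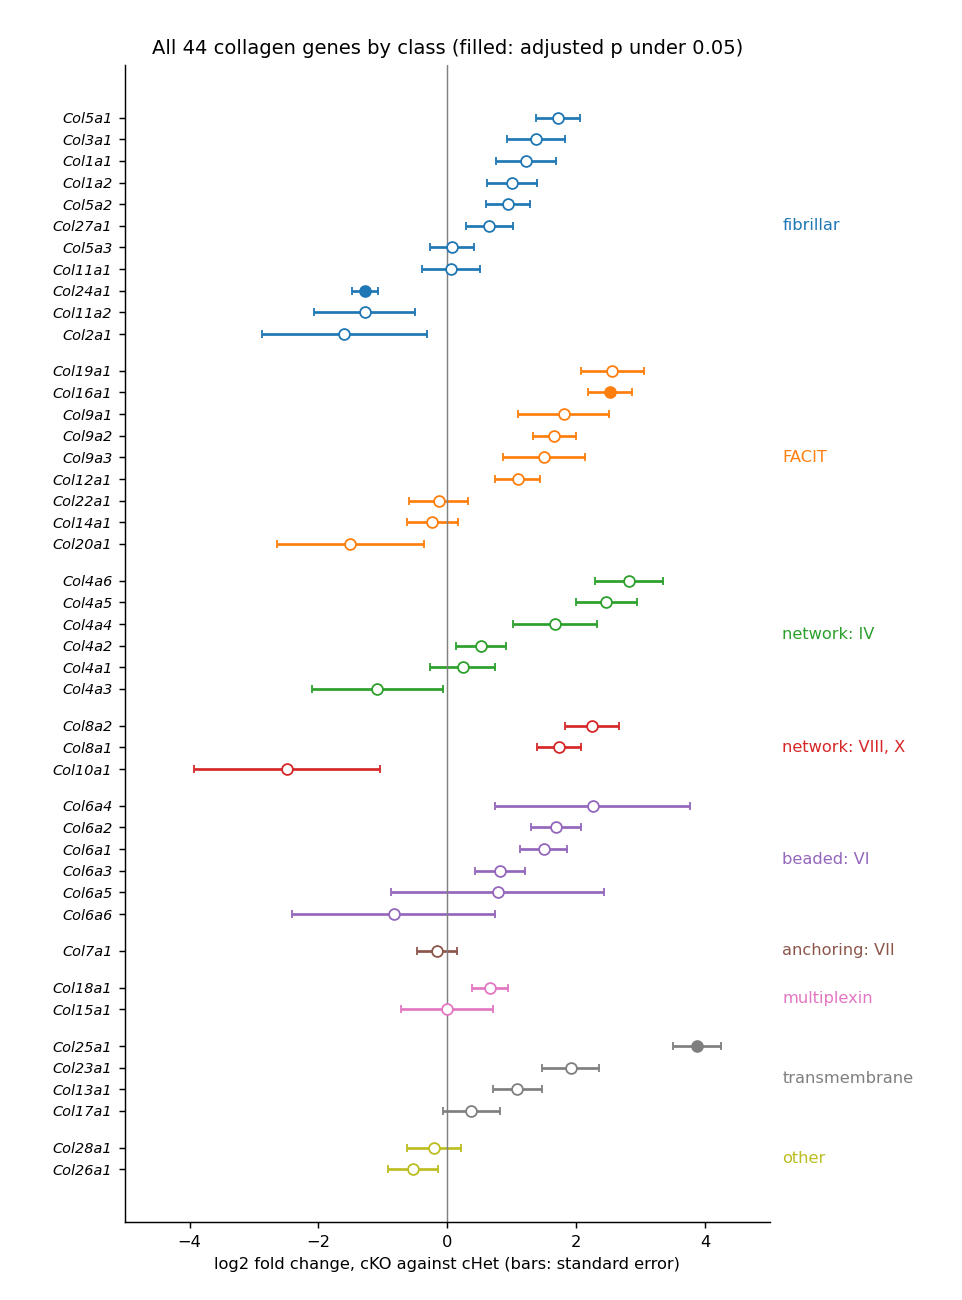
Log2 fold change of cKO against cHet for each of the 44 collagen genes, grouped by class, with bars of 1 SE from edgeR; filled points are the 3 called genes. Col25a1 lies farthest to the right at 3.87, and Col10a1 farthest to the left at −2.49 with a wide bar.

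**Figure D2:**
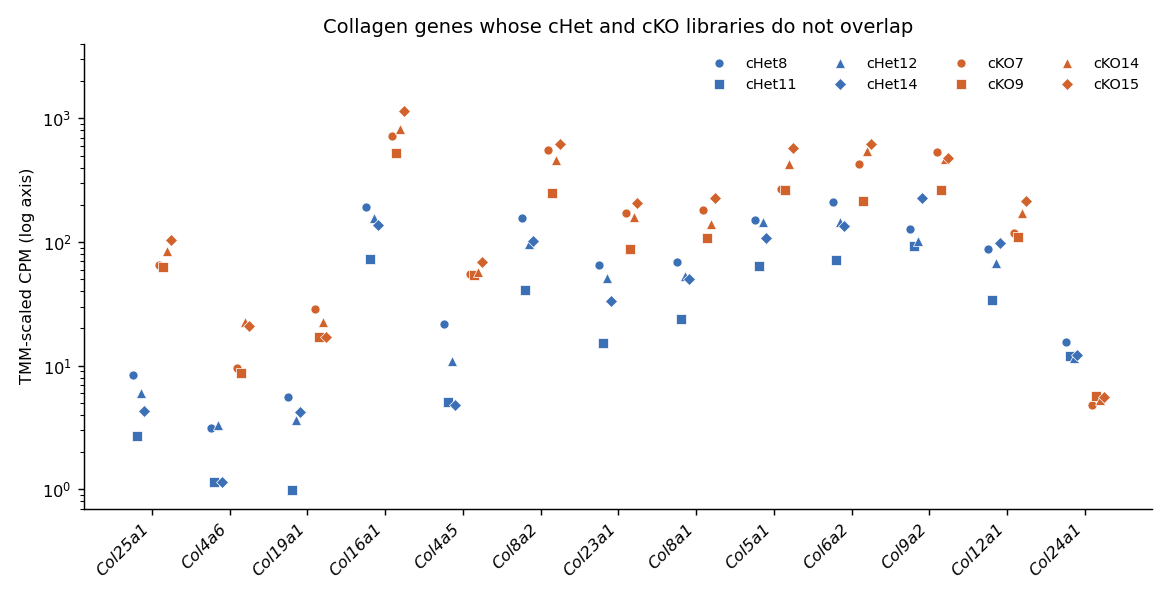
Level of the 13 collagen genes whose groups do not overlap, in each of the 8 libraries (TMM-scaled CPM, log axis), cHet in blue and cKO in orange with 1 symbol per library. The gap between groups is widest for Col25a1, and Col24a1 is the lone gene with cKO below cHet.

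Per kilobase of exon the order of the collagens was led by the same 3 genes in both groups. Col1a1 stood at 364 ± 242 CPM per kb in cHet and 847 ± 238 in cKO, Col3a1 at 299 ± 149.8 and 775 ± 298, and Col1a2 at 137 ± 48.2 and 275 ± 119 (SD, n = 4 each). In both groups the spreads of Col1a1 and Col3a1 cover each other's means, so their order is not fixed by these libraries. Col25a1 moved from rank 37 in cHet to rank 24 in cKO. Col2a1 was at rank 4 in cHet and rank 14 in cKO, but its cHet mean rests on cHet14, at 1839.95 CPM against 26.6 to 429.7 CPM in the other 3. Lengths came from an annotation of an older genome build than the authors' build.

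The 3 chains with the most counts build the interstitial fibrils of pulp, bone and dentin. Col1a1, the major chain of type I collagen, was measured at 2024, 863, 4621 and 2037 CPM in cHet and 3669, 6419.8, 4961 and 7181 CPM in cKO. Its groups overlapped because cHet12 lay above cKO7, and the log2 fold change was 1.22 ± 0.46 (SE, edgeR adjusted p = 0.233). Col1a2, the partner chain, had 2021, 813, 1871 and 2099 CPM in cHet and 2759, 1768, 3921 and 5202 CPM in cKO, with cKO9 below 3 of the 4 cHet libraries (1.005 ± 0.39, adjusted p = 0.24). Col3a1, the type III chain of soft and extensible tissue, had 4484, 1125, 3681 and 2430.3 CPM in cHet and 7664, 3789.9, 8045 and 10915 CPM in cKO. Here cKO9 alone fell within the cHet range (1.38 ± 0.45, adjusted p = 0.181). None of the 3 passed edgeR's test, Col3a1 passed with DESeq2 (adjusted p = 0.0312) and limma voom (0.0451), and with mesenchyme scaling their log2 values were 0.19, −0.27 and 0.24.

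Type V collagen sets the diameter of type I fibrils from within. Col5a1 stood at 149.7, 63.99, 145 and 109 CPM in cHet and 268, 266, 425 and 582 CPM in cKO, a 3.29-fold difference of means with no overlap (log2 1.72 ± 0.34, SE, edgeR adjusted p = 0.0596). Its partner Col5a2 was at 203 ± 73.5 and 390.1 ± 138 CPM (SD, n = 4 each) with overlapping groups, and Col5a3 at 17.3 ± 8.72 and 18.2 ± 4.62 CPM. Col5a1 shares exon sequence with 2 transcripts on the opposite strand (99 and 113 bases), so a small part of its counts is uncertain.

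Among the fibrillar genes Col24a1 was the lone one called by edgeR, and it was lower. Its levels were 15.6, 11.99, 11.5 and 12.3 CPM in cHet and 4.79, 5.66, 5.26 and 5.55 CPM in cKO, so the lowest cHet library had 2.03 times the level of the highest cKO library. Means were 12.8 ± 1.86 and 5.32 ± 0.388 CPM (SD, n = 4 each), with a log2 fold change of −1.27 ± 0.203 (SE, edgeR adjusted p = 0.0377). Col24a1 encodes a minor fibrillar chain, known mainly from developing bone and cornea. The direction held in all 21 other settings. In the looser threshold, the robust dispersions and the test against a 1.5-fold change it could not differ, because their log2 fold changes are those of the main fit. The call was lost without any 1 library other than cKO9 (adjusted p up to 0.146), without the filter (0.0519), with the mesenchyme or olfactory covariate (0.246 and 0.421), with mesenchyme scaling (0.0567) and in the test against a 1.5-fold change (0.135). Col27a1, the related chain, had 12.2 ± 5.06 CPM in cHet and 19.2 ± 6.06 CPM in cKO with overlapping groups.

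The promoter-proximal bases of the 3 called collagens, and of the divergent pair Col4a5 and Col4a6 described below, are shown so that the genes that moved can be compared by their start regions. They are the 250 bases before the RefSeq start on GRCm38.p6, read 5′ to 3′ on the gene's strand. Capitals mark 4 motifs on either strand. They are the core promoter motif TATAAA, the motif CCAAT that the factor NF-Y binds, the motif GGGCGG of the Sp1 family, and CTTTGAT, a core of the sites of the TCF and LEF proteins through which beta-catenin acts on DNA. Col25a1 lies at chr3:130180595-130180844 (+ strand), Col16a1 at chr4:130047590-130047839 (+ strand), Col24a1 at chr3:145292222-145292471 (+ strand), Col4a5 at chrX:141475169-141475418 (+ strand) and Col4a6 at chrX:141474077-141474326 (− strand).
Col25a1: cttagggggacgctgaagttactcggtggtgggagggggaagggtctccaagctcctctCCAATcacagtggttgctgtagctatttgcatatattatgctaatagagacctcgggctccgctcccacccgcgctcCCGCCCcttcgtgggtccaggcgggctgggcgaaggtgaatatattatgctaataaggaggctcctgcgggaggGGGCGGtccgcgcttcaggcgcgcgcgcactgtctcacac
Col16a1: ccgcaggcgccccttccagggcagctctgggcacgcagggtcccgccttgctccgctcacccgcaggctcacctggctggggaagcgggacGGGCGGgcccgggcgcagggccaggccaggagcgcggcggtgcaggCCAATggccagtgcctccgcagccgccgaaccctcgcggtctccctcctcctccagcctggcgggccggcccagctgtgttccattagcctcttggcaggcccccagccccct
Col24a1: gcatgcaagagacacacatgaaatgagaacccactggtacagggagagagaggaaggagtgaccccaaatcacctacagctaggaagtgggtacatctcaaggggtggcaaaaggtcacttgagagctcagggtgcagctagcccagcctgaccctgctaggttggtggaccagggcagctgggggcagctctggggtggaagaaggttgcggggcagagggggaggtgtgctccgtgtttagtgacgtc
Col4a5: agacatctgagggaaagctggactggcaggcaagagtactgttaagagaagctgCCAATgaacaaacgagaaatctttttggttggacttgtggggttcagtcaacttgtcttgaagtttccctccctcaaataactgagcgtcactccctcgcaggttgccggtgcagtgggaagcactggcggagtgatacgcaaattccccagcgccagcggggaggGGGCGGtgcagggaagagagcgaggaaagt
Col4a6: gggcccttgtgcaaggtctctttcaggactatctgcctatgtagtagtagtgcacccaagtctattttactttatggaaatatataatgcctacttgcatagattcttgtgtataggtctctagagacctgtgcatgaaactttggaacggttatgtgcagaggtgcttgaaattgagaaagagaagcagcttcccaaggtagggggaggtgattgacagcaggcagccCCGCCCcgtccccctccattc

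Col25a1 holds 1 CCAAT and 2 GGGCGG in this window and Col16a1 1 of each, whereas Col24a1 holds none of the 4 motifs. Of the 44 collagen genes, 35 have a RefSeq promoter in the table. Among those 35, 60% hold GGGCGG, against 32.9% of 27025 genes with a promoter, and 34.3% hold CCAAT, against 34.5%. TATAAA was found in 14.3% and in 12.97%, and CTTTGAT in 1 collagen promoter, that of Col9a2 (2.86%), and in 3.23% of all. The collagen promoters were also richer in G and C, with a median of 59.6% against 52%. A match is a match of letters, and its absence says only that these letters are not in this window.

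The cartilage fibril chains and the cartilage network chain Col10a1 did not separate the groups and peaked in the same libraries. Col2a1, the chain of type II collagen, was at 215, 429.7, 26.6 and 1839.95 CPM in cHet and 74.3, 41.3, 659 and 54.4 CPM in cKO, highest in cHet14 and, within cKO, highest in cKO14. Col10a1, a marker of hypertrophic cartilage, was at 22.2, 4.08, 3.12 and 39.4 CPM and 1.58, 0.94, 9.67 and 0 CPM, again with its highest values in cHet14 and, within cKO, in cKO14. Col11a2 also peaked in cHet14 and, within cKO, in cKO14 (81.2 ± 71.5 CPM in cHet, 33.3 ± 32.2 CPM in cKO, SD, n = 4 each), and Col11a1, its partner, stood at 124 ± 79.9 and 129 ± 55.5 CPM. The edgeR adjusted p-values of these 4 genes lay between 0.426 and 0.968.

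Cartilage markers that are no collagens did not share 1 pattern. Of the 9 listed, 5 had a positive log2 fold change (47.5% of all genes tested), with a median of 0.57. EdgeR called 1 of them, Sox5, higher (log2 2.31 ± 0.41, SE, adjusted p = 0.0465), against 1.08% of all genes tested, and 0 lower (0.0558%). Comp, a protein of cartilage and tendon matrix, was at 39.4, 36.6, 0.51 and 144 CPM in cHet and 0.357, 0.179, 47.6 and 0.141 CPM in cKO. Matn1, a cartilage matrilin, was at 5.41, 1.33, 0 and 24.9 CPM and 0, 0, 12.8 and 0.259 CPM, so both peaked in cHet14 and cKO14 as Col2a1 did and lay at or near 0 in cKO7, cKO9 and cKO15. Sox9, the transcription factor that drives the chondrocyte programme, was instead at 124, 43.1, 78.8 and 136 CPM in cHet and 548, 211, 508 and 640.4 CPM in cKO, without overlap. Acan was highest in cHet14 and, within cKO, in cKO15, at 5.3, 12.3, 1.06 and 33.99 CPM and 12.02, 17.8, 23.3 and 25.2 CPM. Hapln1 and Sox6 overlapped between groups, with log2 fold changes of 0.87 and −0.67. The part of cartilage cells in the values of the type II, IX, X and XI chains was not tested.

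**Figure D3:**
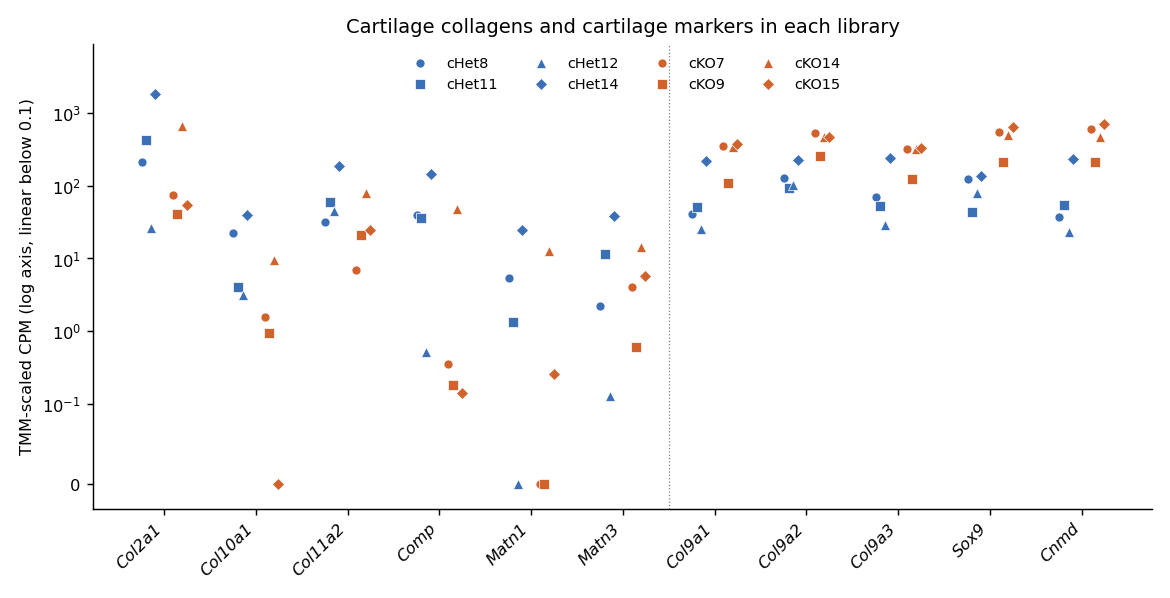
Cartilage collagens and cartilage markers in each library (TMM-scaled CPM, log axis that is linear below 0.1). The split by the dotted line was chosen after the values were seen. Within cHet, the genes on both sides are highest in cHet14, so that library does not set the sides apart. Within cKO, genes to the left are highest in cKO14, whereas genes to the right are higher in most cKO libraries than in cHet. Col11a1 and the listed markers Acan, Hapln1, Sox5 and Sox6 are not drawn.

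Type IX collagen, the FACIT that coats type II fibrils, had higher means in cKO than in cHet. Col9a2 was at 129, 93.5, 102 and 229 CPM in cHet and 537, 262, 468 and 477 CPM in cKO, without overlap (3.16-fold between means, log2 1.66 ± 0.33, SE, edgeR adjusted p = 0.0596). Col9a1 was at 41.1, 51.1, 25.1 and 221 CPM and 351, 111, 342 and 377 CPM, where cHet14 lay above cKO9 (log2 1.803 ± 0.71, adjusted p = 0.246). Col9a3 had the same shape, with 97.6 ± 95.4 CPM in the cHet libraries and 275 ± 101 CPM in the cKO libraries (SD, n = 4 each), but its exons share 234 bases with Tcfl5 on the opposite strand, so its counts are uncertain. Single libraries moved these values. Without cHet14 the log2 fold change of Col9a1 was 2.91, that of Col9a3 2.44 and that of Col2a1 −0.13, against 1.803, 1.497 and −1.599 with all libraries, and without cKO14 that of Col2a1 was −3.46. Whether Col2a1 and the type IX genes differ in their fold changes was not tested.

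Col16a1 was the lone FACIT gene called by edgeR. It stood at 194, 72.4, 156 and 137 CPM in cHet and 717, 524, 826 and 1154 CPM in cKO, so even its lowest cKO library was 2.71 times its highest cHet library. Means were 139.8 ± 50.7 and 806 ± 264 CPM (SD, n = 4 each), a 5.76-fold rise between means (log2 2.53 ± 0.34, SE, edgeR adjusted p = 0.0328). Its product, type XVI collagen, sits on fibrils and microfibrils of connective tissue and binds integrins. The call was lost without any 1 of cHet11, cHet12, cHet14, cKO7, cKO14 and cKO15 (adjusted p 0.0684 to 0.134). With the mesenchyme score as a covariate the log2 fold change was 1.55 (adjusted p = 0.105) and with mesenchyme scaling 1.33 (0.0567).

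None of the other FACIT genes passed edgeR's test. Col19a1, expressed at muscle and synapse in other settings, was at 5.63, 0.986, 3.61 and 4.25 CPM in cHet and 28.96, 17.03, 22.4 and 17.03 CPM in cKO, without overlap (5.903-fold, log2 2.56 ± 0.49, SE, edgeR adjusted p = 0.0545). Col12a1, which coats type I fibrils in ligament and bone, was at 87.6, 33.7, 68.1 and 98.8 CPM and 117, 110.5, 173 and 214 CPM, also without overlap (log2 1.09 ± 0.35, adjusted p = 0.174), but at −0.14 with mesenchyme scaling. Col14a1, Col20a1 and Col22a1 had log2 fold changes of −0.23, −1.503 and −0.14, overlapping groups and means of at most 12.5 CPM. In cHet8, Col14a1 and Col20a1 stood at 20.5 and 41.3 CPM, far above the other cHet libraries. Over the 9 FACIT genes the median log2 fold change was 1.497, and 0.0094 with mesenchyme scaling.

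The chains of type IV collagen, the scaffold of basement membranes, come in 3 gene pairs. Col4a1 and Col4a2, the pair found in nearly all basement membranes, start 21 bases apart on opposite strands. Col4a1 was at 268, 66.3, 121 and 60.01 CPM in cHet and 114, 114, 254 and 126 CPM in cKO, and Col4a2 at 142, 44.7, 64.02 and 49.9 CPM and 74.5, 97.7, 153 and 106 CPM. Both groups overlapped widely, with log2 fold changes of 0.24 ± 0.503 and 0.52 ± 0.39 (SE, edgeR adjusted p = 0.864 and 0.553), which turned to −0.78 and −0.55 with mesenchyme scaling. The summed endothelial markers were 16.8 to 30.5 CPM in cHet and 9.69 to 28.9 CPM in cKO.

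Col4a5 and Col4a6, the other divergent pair, start 1343 bases apart on chromosome X and encode chains of basement membranes under epithelia and around smooth muscle. Col4a5 was at 21.6, 5.04, 10.98 and 4.82 CPM in cHet and 55.1, 54.4, 57.01 and 68.8 CPM in cKO, and the lowest cKO library had 2.51 times the level of the highest cHet library. Col4a6 was at 3.14, 1.14, 3.31 and 1.14 CPM and 9.497, 8.73, 22.6 and 20.9 CPM, also without overlap. Their means differed 5.54-fold and 7.07-fold, with log2 fold changes of 2.47 ± 0.48 and 2.82 ± 0.53 (SE) and edgeR adjusted p-values of 0.0557 and 0.0523, just outside the threshold. The third pair, Col4a3 and Col4a4, was near the bottom of the range, between 0.0425 and 2.798 CPM over all libraries. In their windows, Col4a5 holds 1 CCAAT and 1 GGGCGG and Col4a6 1 GGGCGG.

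Type VIII collagen forms hexagonal lattices, known from the cornea and from vessel walls. Col8a2 was at 156, 40.98, 96.7 and 102 CPM in cHet and 553, 248, 458 and 616 CPM in cKO, and Col8a1 at 69.1, 23.8, 53.1 and 50.6 CPM and 180.2, 108, 141 and 226 CPM. Neither overlapped between groups, and the means differed 4.75-fold for Col8a2 (log2 2.25 ± 0.42, SE, edgeR adjusted p = 0.0507) and 3.33-fold for Col8a1 (1.74 ± 0.34, adjusted p = 0.0574). Per kilobase Col8a2 was the seventh collagen in cKO, at 104 ± 35.9 CPM per kb. With the mesenchyme covariate the log2 fold changes were 1.02 for Col8a2 (adjusted p = 0.391) and 0.75 for Col8a1 (0.487), and with mesenchyme scaling 1.08 and 0.55. Without the filter on low counts edgeR called Col8a2 (adjusted p = 0.0488).

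Type VI collagen makes beaded filaments around cells, from chains Col6a1, Col6a2 and Col6a3 in most tissues. Col6a1 was at 319, 108, 201 and 176 CPM in cHet and 598, 302, 614 and 750.1 CPM in cKO, where cHet8 and cKO9 overlapped. Col6a2 was at 209.6, 71.99, 145 and 135 CPM and 424, 214, 549 and 623 CPM, with cKO9 just above cHet8. Col6a3 was at 86.1, 28.7, 86.1 and 36.5 CPM and 72.03, 119.7, 98.8 and 128 CPM and overlapped. Log2 fold changes were 1.49 ± 0.37, 1.69 ± 0.39 and 0.82 ± 0.38 (SE, edgeR adjusted p = 0.0957, 0.086 and 0.324), and Col6a3 turned to −0.19 with mesenchyme scaling. Col6a4, Col6a5 and Col6a6 reached at most 5.897 CPM in any library, and that value was in cHet8.

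The anchoring fibril and multiplexin collagens did not pass the test. Col7a1, the anchoring fibril chain beneath epithelia, was at 15.7, 7.66, 15.97 and 11.2 CPM in cHet and 9.43, 16.3, 9.73 and 9.83 CPM in cKO (log2 −0.16 ± 0.31, SE, edgeR adjusted p = 0.852). Col18a1, the multiplexin whose fragment is endostatin, was at 119, 52.7, 64.4 and 60.9 CPM and 102, 90.3, 144 and 136 CPM (log2 0.66 ± 0.28, adjusted p = 0.271). Col15a1, the other multiplexin, was at 3.199, 1.897, 0.85 and 0.518 CPM and 1.58, 2.82, 1.65 and 0.4 CPM, with a log2 fold change of −0.00263 ± 0.71. In each of the 3 genes the groups overlapped.

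Col25a1 had the largest fold change of the 44 genes. It was at 8.46, 2.71, 5.99 and 4.34 CPM in cHet and 64.9, 62.7, 83.9 and 103 CPM in cKO, so every cKO library was at least 7.41 times every cHet library. The means were 5.38 ± 2.45 and 78.6 ± 18.9 CPM (SD, n = 4 each), 14.6-fold apart (log2 3.87 ± 0.37, SE, edgeR adjusted p = 0.0162). Type XXV collagen is a transmembrane protein with a shed ectodomain, known from amyloid plaques, where that ectodomain accumulates, and from motor nerve growth into muscle. The call held in 12 of the 13 other settings with all libraries, among them the mesenchyme covariate (log2 2.96, adjusted p = 0.00927) and mesenchyme scaling (2.76, 0.0458). It was lost with the olfactory covariate (adjusted p = 0.179) and without cHet12 (0.0746), cHet14 (0.112) or cKO14 (0.083). In each of these fits edgeR called 0 of all genes tested. The log2 fold change of Col25a1 stayed between 3.65 and 4.18 whichever library was left out. The 12 include the looser threshold, which is the main fit read at another cut. A called gene cannot fail there, so that setting is no check.

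The other transmembrane collagens were not called by edgeR. Col23a1 was at 65.7, 15.2, 51.5 and 33.3 CPM in cHet and 173, 88.01, 158 and 206 CPM in cKO, without overlap (3.77-fold, log2 1.92 ± 0.44, SE, edgeR adjusted p = 0.0847). Col17a1, the hemidesmosome collagen of epithelial cells, was at 31.9, 14.3, 12.3 and 22.2 CPM and 14.1, 14.8, 34.2 and 41.5 CPM (log2 0.37 ± 0.44, adjusted p = 0.735), with summed epithelial markers of 697 to 1029 CPM in cHet and 707 to 812 CPM in cKO. Col13a1, a collagen of the neuromuscular junction and of focal adhesions, had means of 3.77 ± 1.81 and 7.996 ± 2.34 CPM (SD, n = 4 each), and its overlap came from cHet8 at 6.47 CPM. The remaining genes, Col26a1 and Col28a1, were at 114, 33.02, 99.6 and 53.97 and 62.4, 32.4, 63.7 and 48.8 CPM and at 6.47, 3.72, 4.52 and 2.66 and 3.41, 2.22, 3.04 and 6.33 CPM. Their log2 fold changes were −0.54 ± 0.39 and −0.21 ± 0.42 (SE), and both groups overlapped.

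Fibrillar genes made up most collagen transcripts in both groups. They took 83.3 ± 3.599% of collagen counts in cHet libraries and 79.6 ± 2.54% in cKO libraries (SD, n = 4 each), FACIT genes 6.07 ± 2.36% and 8.97 ± 1.33%, and type VI genes 4.20 ± 1.01% and 4.996 ± 0.636%. The hexagonal network class had 2.12%, 1.56%, 1.26% and 1.74% in the cHet libraries and 3.76%, 2.32%, 2.56% and 2.76% in the cKO libraries, without overlap. The transmembrane class had 0.967%, 0.791%, 0.599% and 0.5701% in cHet and 1.35%, 1.12%, 1.19% and 1.17% in cKO, also without overlap. Col26a1 and Col28a1 together fell outside the cHet range in each cKO library, at 0.810 ± 0.217% in cHet and 0.256 ± 0.0679% in cKO. Shares of 1 total depend on each other, so a larger share of 1 class lowers the rest, and no test was made.

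Ratios of chains within a library do not depend on library scaling, and 12 were compared by exact permutation of the library labels (70 ways to split 8 libraries evenly). Most pair partner chains, but Col4a5/Col4a1, Col3a1/Col1a1 and Col5a1/Col1a1 set chains of different molecules against each other. The pair Col4a5 and Col4a6 was not compared. The smallest exact p of this design is 0.0286, and no ratio passed after Benjamini-Hochberg adjustment over the 12. A lone ratio at that smallest p cannot pass this adjustment, so the outcome says little about any single ratio. For 3 ratios the groups did not overlap. Col5a1/Col5a2 was 0.542, 0.631, 0.641 and 0.52 in cHet and 0.781, 1.15, 0.987 and 1.04 in cKO (two-sided exact p = 0.0286, adjusted 0.114). Col4a5/Col4a1 was 0.0809, 0.076, 0.0906 and 0.0802 in cHet and 0.483, 0.477, 0.225 and 0.547 in cKO, a geometric mean of 0.0818 against 0.41, with the same exact p. Col8a1/Col8a2 was lower in cKO, 0.444, 0.581, 0.55 and 0.498 in cHet and 0.326, 0.435, 0.307 and 0.366 in cKO, again with the same exact p.

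Col1a1/Col1a2 was close to 1 in 3 cHet libraries and between 1.27 and 1.38 in 3 cKO libraries. The exceptions were cHet12 at 2.47 and cKO9 at 3.63, and these libraries also had the lowest Col3a1/Col1a1 and Col5a1/Col1a1 ratios of their groups. Col1a1 was thus high in both relative to 3 other chains, and the difference between groups did not pass (two-sided exact p = 0.457). Without cHet12 it was 0.75 on the log2 scale and without cKO9 0.068, against 0.43 with all libraries. Col11a1/Col11a2 had geometric means of 1.71 in cHet and 5.13 in cKO (exact p = 0.0571), and Col9a3/Col9a1 of 1.22 and 0.962 (exact p = 0.0857). The exact p-values of the other 6 ratios lay between 0.229 and 0.971.

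**Figure D4:**
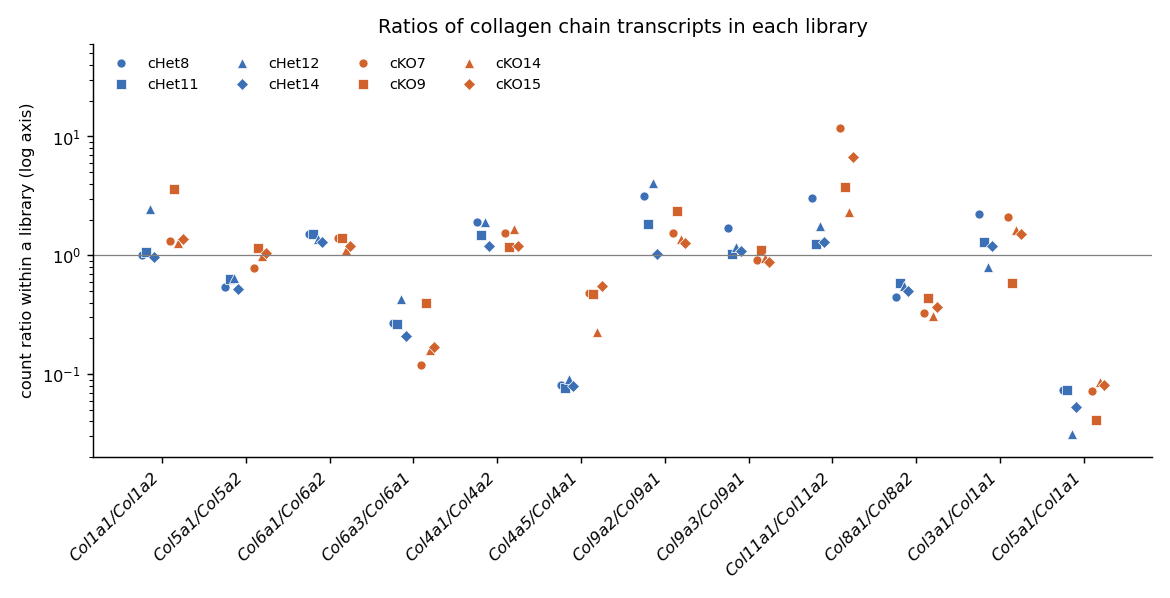
Count ratios of 12 pairs of collagen chains in each library (log axis, line at 1), cHet in blue and cKO in orange with 1 symbol per library. Col5a1/Col5a2, Col4a5/Col4a1 and Col8a1/Col8a2 separate the groups, and cHet12 and cKO9 stand above the other libraries in Col1a1/Col1a2.

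Genes that make, trim, cross-link and sense collagen were listed by role, 50 in all, of which 49 were tested. Of these, 2 were called higher by edgeR and 0 lower, against 1.08% and 0.0558% of all genes tested. Their median log2 fold change was 0.82, and 37 had a positive one, against 47.5% of all genes tested. DESeq2 called 23 of them higher (6.79% of all genes tested) and limma voom 22 (5.96% of all genes tested). Colgalt1, which adds the galactose to hydroxylysine of collagen, was at 105, 90.5, 110.4 and 103 CPM in cHet and 169, 143, 157 and 174 CPM in cKO, with every cKO library above every cHet library (log2 0.65 ± 0.11, SE, edgeR adjusted p = 0.0385), but its sign turned with mesenchyme scaling (log2 −0.66). Mrc2, the endocytic receptor that takes up collagen fragments, was at 56.6, 19.7, 40.9 and 34.2 CPM in cHet and 136, 110.1, 176 and 212 CPM in cKO (log2 2.07 ± 0.33, adjusted p = 0.0385), also without overlap, and its log2 fold change was 1.12 under the mesenchyme covariate and 0.8995 under mesenchyme scaling, where edgeR no longer called it (adjusted p of 0.156 and 0.058). Each lost its call without most single libraries: Colgalt1 without any 1 but cKO9, with adjusted p up to 0.157, and Mrc2 without any 1 but cHet8 and cKO9, with adjusted p up to 0.147.

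By role, the 14 genes of hydroxylation and glycosylation had a median log2 fold change of 0.84 with 12 positive, and the 12 of chaperones and secretion 0.68 with 9 positive. In the second list Fkbp14 and Fkbp10, prolyl isomerases of the endoplasmic reticulum that fold procollagen, had log2 fold changes of 1.69 ± 0.39 and 1.701 ± 0.41 (SE, edgeR adjusted p = 0.0817 and 0.0897), and Kdelr2 and Sec23a, of the secretory route, 0.94 ± 0.23 and 0.86 ± 0.25. In propeptide removal, with a median of 0.92 over 7 genes tested, the N-propeptide protease Adamts3 had 2.28 ± 0.44 (adjusted p = 0.0545), the enhancer Pcolce 1.81 ± 0.49, the C-propeptide protease Bmp1 1.06 ± 0.32 and Pcolce2 −0.47 ± 0.17. Among the 6 cross-linking genes, with a median of 1.22, the lysyl oxidases Loxl3 and Loxl1 had 1.799 ± 0.36 (adjusted p = 0.0581) and 1.399 ± 0.36, the transglutaminase Tgm2 1.298 ± 0.41, and the lysyl oxidase Loxl4 −1.25 ± 0.66 with a lower mean in cKO. The 10 receptor and uptake genes had a median of 0.26, the lowest of the 5 lists, with 7 positive. None of the genes named here by role passed the threshold in edgeR.

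**Figure D5:**
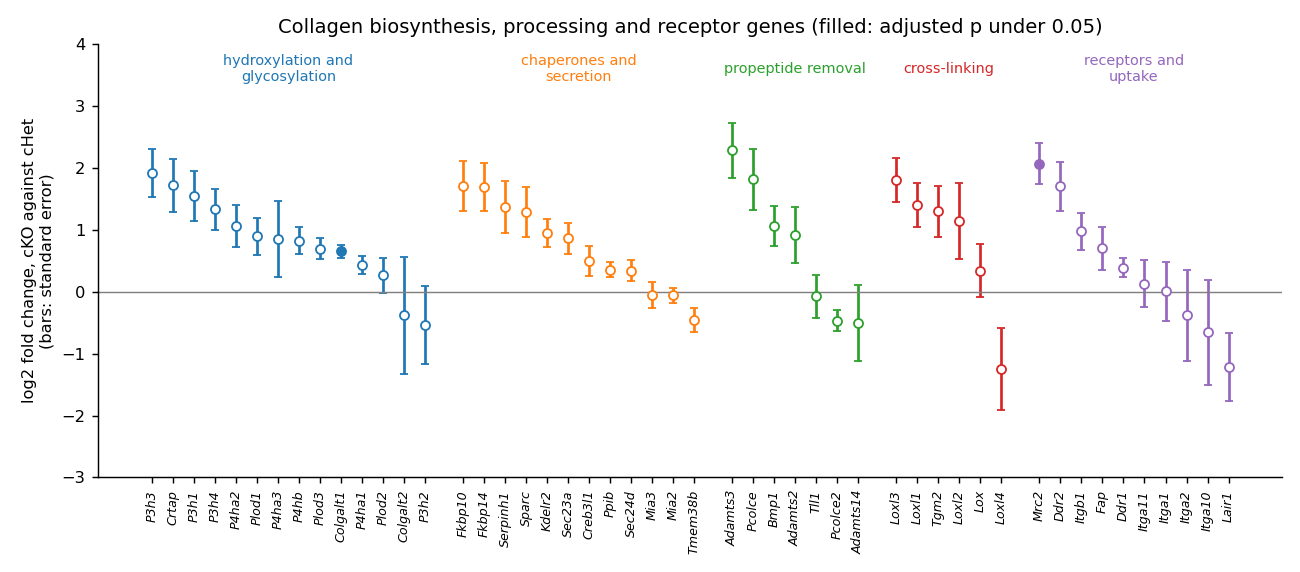
Log2 fold change of cKO against cHet, with bars of 1 SE from edgeR, for the 49 tested genes of the 5 collagen pathway lists. The called genes are Colgalt1 at 0.65 and Mrc2 at 2.07.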

How the data were processed

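RNA from sorted cells was made into cDNA with a SMART-Seq v4 low-input kit and sequenced on an Illumina NextSeq550, per the labels' protocols. The deposited table holds the authors' raw whole-number counts per Ensembl gene for 8 libraries. Trim Galore and STAR are the tools, and GRCm39 and mm39 the builds, listed in the submitters' processing notes, which carry no tool versions. The sources used here do not give the counting tool or its use of strand. Column numbers match no sample title, so each column was assigned to its group only. Of 56748 identifiers, 52073 matched a symbol, and the identifier with the largest total stood for a shared symbol.

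All genes were fitted with edgeR 4.0.16 in R 4.3.3 (TMM factors, expression filter by group, quasi-likelihood F test, genotype as the sole term), which tested 21508 genes, with Benjamini-Hochberg adjustment over all of them and a threshold of 0.05, two-sided. The SE of a log2 fold change is its size divided by the root of its F statistic. The common biological coefficient of variation was 0.553, and correlations of log2(CPM+1) between libraries lay between 0.915 and 0.973. The scripts were tested on simulated counts. The mesenchyme score is the mean log2 CPM, with a prior count of 2, of 12 marker genes. Exon lengths came from GENCODE M21 (GRCm38), which differs from the authors' build, and promoters from RefSeq (GRCm38.p6). In 35 of 38 collagen promoter windows the bases just after the start lie in a GENCODE M21 transcript.

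Alternatives were DESeq2 1.42.0, limma 3.58.1 voom with quality weights, RLE size factors or plain library sizes in place of TMM, all genes with any count or those with 1 CPM in 4 libraries, robust dispersion estimates, 0.10 as the threshold, testing beyond a 1.5-fold change, mesenchyme or olfactory scores as covariates, scaling to equal mesenchyme score, counts summed per symbol and omission of each library. Values in every library are given for called genes, genes whose groups did not overlap and the 3 most abundant genes of each class, and for some genes named beside them. From each pathway list the called genes are named, or else up to 4 with the smallest p. The members, classes, pathway lists and markers were chosen with earlier results of these data known.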

Additional observations from a re-analysis of the deposited data

Results flagged for a closer look

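Of 112 groups of 4 libraries examined (44 genes and 12 ratios in each genotype), 14 held 1 library whose gap to its nearest neighbour passed Dixon's 95% critical value for the gap as a part of the range. With independent, normally distributed values, chance meets that criterion in about 1 in 20 groups. The values here are untransformed CPM and ratios of genes that can vary together, so that rate may not hold for them. In cKO14, Col2a1 stood at 659 CPM against 41.3 to 74.3 in the other cKO libraries, Col10a1 at 9.67 CPM against 0 to 1.58, and Col4a1 at 254 CPM against 113.9 to 125.8. In cHet14, Col9a1 stood at 221 CPM against 25.1 to 51.1 in the other cHet libraries, and Col11a1 at 243 CPM against 74.9 to 97.1. In cKO9, Col9a1 was at 111 CPM and Col9a3 at 124 CPM, each below the other cKO libraries (342 to 377 and 320.1 to 334), while Col7a1 was above them at 16.3 CPM. In cHet8, Col6a6 stood at 5.897 CPM, Col13a1 at 6.47 CPM, Col14a1 at 20.5 CPM and Col20a1 at 41.3 CPM, each above the other cHet libraries. The Col1a1/Col1a2 ratio was 2.47 in cHet12 and 3.63 in cKO9, against 0.9705 to 1.06 and 1.27 to 1.38 in the rest of their groups.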

How the results depend on the processing

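Over all genes, 232 were called higher and 12 lower, against 1402 and 561 with DESeq2, 1281 and 271 with limma voom, 704 and 62 at a threshold of 0.10, 10 and 0 in the test against a 1.5-fold change, 7 and 1 with the mesenchyme covariate, 0 and 0 with the olfactory covariate (1398 at an unadjusted p under 0.05 in edgeR, 17 of them collagens) and 3 and 1 with mesenchyme scaling. Calls of lower genes were 5 without the filter and 7 with robust dispersions. Calls of higher genes were 216 without the filter (0.586% of the genes tested there) and 293 with the filter of 1 CPM (1.7%). Collagens called higher numbered 2, against 15 with DESeq2, 13 with limma voom, 3 without the filter, 8 with the filter of 1 CPM (of 39 tested), 12 at 0.10, 1 with each of the 1.5-fold test, the mesenchyme covariate and mesenchyme scaling, and 0 with the olfactory covariate. The 1 collagen called lower became 0 without the filter, in the 1.5-fold test, with either covariate and with mesenchyme scaling. Pathway genes called higher numbered 2, against 23 with DESeq2, 22 with limma voom, 4 with the filter of 1 CPM, 12 at 0.10, and 0 with the 1.5-fold test, either covariate and mesenchyme scaling. Leaving out 1 library at a time gave 0 to 816 genes called higher and 0 to 144 lower, 0 to 12 collagens higher and 0 to 1 lower, and 0 to 17 pathway genes higher. For collagens called higher, the counts of 0 came without cHet12, cHet14 or cKO14, where edgeR called 0 genes of any kind. The highest count came without cKO9. The cause was not tested.

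Among the 28 collagens given by rule and the 2 called pathway genes, signs turned for genes that edgeR had not called, Colgalt1 excepted. With the mesenchyme covariate, log2 values were Col1a2 −0.0904, Col3a1 −0.0312, Col4a1 −0.75, Col4a2 −0.22, Col15a1 0.0675, Col17a1 −0.46 and Col18a1 −0.0128. With the olfactory covariate they were Col4a1 −0.56, Col4a2 −0.10 and Col17a1 −0.31. With mesenchyme scaling they were Col1a2 −0.27, Col4a1 −0.78, Col4a2 −0.55, Col6a3 −0.19, Col12a1 −0.14, Col17a1 −0.94, Col18a1 −0.54 and Colgalt1 −0.66. That scaling lowers nearly every gene by a similar amount, so the smaller positive values turn. Col15a1 was at 0.0438 with limma voom. Of the 16 other collagens, 12 turned sign in at least 1 setting, among them Col5a2 (−0.27), Col27a1 (−0.68) and Col13a1 (−0.053) with mesenchyme scaling and Col2a1 (0.24) with the olfactory covariate. Without single libraries, Col4a1 lay between −0.13 (without cKO14) and 0.88 (without cHet8), Col15a1 between −0.42 (without cKO9) and 0.57 (without cHet8), and Col28a1 between −0.59 (without cKO15) and 0.0443 (without cHet8). The log2 difference of Col3a1/Col1a1, 0.0367 with all libraries, ranged from −0.19 to 0.42. Without Col1a1 and Col1a2 in the total, the differences in class share were −0.128 percentage points for the anchoring fibril class (−0.0785 with them), 2.003 for the hexagonal class (1.18), 0.8292 for the transmembrane class (0.476) and −0.964 for Col26a1 with Col28a1 (−0.554).

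Counted over the 28 collagens given by rule and the 2 called pathway genes, with 1 value per gene and setting, 508 values kept their direction and their side of the threshold, 51 passed it, 46 fell short of it and 25 turned sign. Not all of the 508 are separate checks. The looser threshold, the robust dispersions and the test against a fold change keep the main log2 fold changes, so no sign could turn there. A called gene could not lose its call at the looser threshold. No paired analysis was possible because the column numbers match no sample title and 14 is the lone number that both groups share, so the replicate block was not run. Depth was 44444033 counts or more per library. Col4a3, Col4a4, Col6a4, Col6a5, Col6a6 and Col15a1 had means under 2 CPM in both groups, and their log2 fold changes carry SEs of 0.65 to 1.66.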

Other observations

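Several collagen genes share exon bases with another annotated gene, and how such reads were counted is not stated by the labels. On the opposite strand, Col9a3 shares 234 bases with Tcfl5, Col4a1 and Col4a2 share 22 bases with each other, and Col10a1 shares 18 bases with Nt5dc1, so reads from these stretches cannot be assigned without strand. On the same strand, Col3a1 holds 141 bases of an annotated microRNA gene and Col7a1 36 bases of Mir711. Of the called genes, Col25a1, Col16a1 and Col24a1 share no exon bases with another gene in GENCODE M21.

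Odontoblast and osteoblast markers, which come from the cells that secrete most type I collagen in a tooth and its socket, were also measured. The 6 odontoblast markers summed to 139 to 411 CPM in cHet and 219.7 to 555 CPM in cKO, and the 7 osteoblast markers to 468 to 1029 CPM and 542 to 1238 CPM. Both ranges overlapped between groups, as those of Col1a1 and Col1a2 did. EdgeR called 1 odontoblast marker, Dlx3, higher and 0 osteoblast markers (1.08% of all genes tested were called higher and 0.0558% lower). The odontoblast list was mixed. A positive log2 fold change was found for 2 of its 6 genes and for 6 of the 7 osteoblast markers (47.5% of all genes tested). The odontoblast median was −0.087, and Dspp and Smpd3 had −1.23 and −1.43, neither of them called. Dmp1 and Phex lay near 0, at −0.049 ± 0.51 and −0.12 ± 1.15 (SE). Dlx3 and Nes, at 2.19 and 1.65, were higher in every cKO library (6.46% of all genes tested). In this list 0 genes were lower in every cKO library (3.68% of all genes tested).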
